A study of Rattus norvegicus with 18 samples.

Results

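The 10 genes described here carry hormone signals into or out of the hepatocyte. Fgf21 and Igf1 encode secreted hormones, Igfbp1, Igfbp2 and Igfbp3 encode carriers of the insulin-like growth factors (IGFs), Ghr, Insr and Avpr1a encode the receptors for growth hormone, insulin and vasopressin, and Irs1 and Irs2 encode the adaptor proteins that the insulin receptor phosphorylates. They and the gene lists below were chosen by name, with earlier results of these data known, so counts of those called are a description. A probe set, a group of short probes that reads 1 transcript, was taken where the array's annotation gave it exactly 1 gene symbol and that symbol was among the 10. All 10 genes were found, through 15 probe sets, among 14217 genes with such a probe set and 31042 probe sets tested. For Igf1, Ghr, Insr and Igfbp3, which had more than 1, the brightest probe set across the 18 arrays stood for the gene, and the others are given beside it.

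RNA came from primary hepatocytes of Wistar rats, hybridised to 18 Affymetrix whole-genome rat arrays. After 24 h of attachment the cells received 30 µM EMD, 100 µM EMD or the vehicle, 0.1% DMSO, for 24 or 72 h, with 3 arrays in each of the 6 groups. EMD is described in the study as a dual agonist of PPARα and PPARγ. Every group, the vehicle included, was kept in a medium with 4 mg/l insulin and with hydrocortisone, a glucocorticoid, so that insulin and glucocorticoid signalling were never without their ligand here, and no added growth hormone or vasopressin is described. Per the study's methods the cells of each animal received all the treatments. The replicates are biological ones per the methods, and per the labels for the EMD arrays. No label ties a replicate number to an animal, so a p-value here weighs a difference against the spread among the 18 arrays alone. Arrays of the same number tended to deviate together, and a fit with the replicate number as a block is among the alternatives below.

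In the liver, growth hormone binds its receptor and, through the kinase JAK2 and the factor STAT5B, turns on Igf1, which makes the liver the main source of circulating IGF1. Insulin acts through its receptor and the IRS proteins on the kinase AKT, which keeps the transcription factor FOXO1 out of the nucleus, and Igfbp1 is a classic gene that insulin lowers and glucocorticoids raise. FGF21 is a hormone of the fasted liver whose gene is known as a target of PPARα and of the stress factor ATF4, and in the mouse it has been linked to lower growth hormone signalling in the liver.

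The proximal promoters of Fgf21 and Igfbp1 are shown because these genes are textbook targets of PPARα and of the insulin and glucocorticoid in the medium. Both are from RefSeq on the rat build GRCr8, 300 bases that end shortly after the annotated start of transcription, printed 5′ to 3′ along the gene's own strand. Capitals in Fgf21 mark an exact C/EBP-ATF element (TGATGCAAT, here on the other strand) and a TATA box (TATAAA), and capitals in Igfbp1 mark the core of an insulin response element (TGTTTTG, here on the other strand).
Fgf21, chr1:105221327-105221626, minus strand: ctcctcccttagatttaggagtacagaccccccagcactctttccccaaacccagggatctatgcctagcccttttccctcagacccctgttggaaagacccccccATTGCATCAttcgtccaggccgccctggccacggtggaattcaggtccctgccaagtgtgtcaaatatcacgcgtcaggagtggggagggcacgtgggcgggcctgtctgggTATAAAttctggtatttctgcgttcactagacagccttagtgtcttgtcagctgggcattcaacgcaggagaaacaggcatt
Igfbp1, chr14:86261027-86261326, plus strand: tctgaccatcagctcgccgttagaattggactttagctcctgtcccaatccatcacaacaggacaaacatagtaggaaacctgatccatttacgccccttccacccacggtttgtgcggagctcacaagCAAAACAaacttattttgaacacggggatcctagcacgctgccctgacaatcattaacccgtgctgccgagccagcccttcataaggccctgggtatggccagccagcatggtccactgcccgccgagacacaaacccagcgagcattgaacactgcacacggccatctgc

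The whole genes lie on the same build at chr1:105219825-105221376 (Fgf21), chr14:86261277-86266344 (Igfbp1), chr14:86270208-86277944 (Igfbp3), chr2:54269066-54532595 (Ghr) and chr7:59999743-60003667 (Avpr1a). Promoters of 9 of the 10 genes were in the table, and each motif was searched for on both strands. The C/EBP-ATF element stood at -144 in Fgf21, and 0.188% of 33469 promoters of the same length held it. TGTTTTG was found in Igfbp1 at -121 and in Igf1 at -67, and in 6.28% of all promoters. TGTTTAC, the core that FOXO factors bind, was found in Insr at -100 and in 3.78% of all promoters. The nuclear receptor element AGGTCA, which is part of every match of its direct repeat, was found in Igf1 at -4 and in 16.2% of all promoters, and TATAAA was also found in Avpr1a at -212 and in 14.2%. Exact matches to the PPAR response element (a direct repeat of AGGTCA with 1 base between) and to the STAT5 element TTCNNNGAA were found in 0 of the 9 promoters, against 0.0538% and 8.87% of all, which says only that these letters are not in these windows.

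The values are log2 expression estimates. They ran from 2.39 to 14.77 with a median of 5.08, array medians ranged over 5.04 to 5.11, no 2 arrays correlated below 0.961 and none were identical. The number of arrays limits the precision, and the SE (standard error) of a log2 difference between groups was 0.116 at the median probe set. All 9 measured hepatocyte markers lay above the median of all values in every group, with albumin at 14.7. Their mean level was 12.88 to 12.93 in the vehicle arrays of 24 h, 12.62 to 12.75 at 30 µM and 12.59 to 12.74 at 100 µM. At 72 h it was 12.87 to 12.99 in vehicle, 12.33 to 12.59 at 30 µM and 12.13 to 12.52 at 100 µM. The 11 Kupffer cell and macrophage markers, of which 4 to 7 lay above that median, had mean levels of 5.89 to 6.63 in the vehicle arrays of 24 h and 5.57 to 5.89 in those of 72 h. With EMD their means lay between 5.71 and 6.07 in the arrays of 24 h and between 5.17 and 5.47 in those of 72 h. Of 11 stellate cell and fibroblast markers 1 to 3 lay above the median, among them Acta2 (group means of 5.69 to 6.49) and, at its highest, Reln (6.16), and their mean level was 4.20 to 4.52 over the arrays. Of 9 endothelial markers only Eng (5.38 to 6.69) lay above it, with Pecam1, Kdr and Lyve1 below 3.8, and their mean was lower in vehicle at 72 h (3.69 to 3.79) than with EMD (3.88 to 4.01). Of 6 biliary markers 1 or 2 lay above it, with Epcam at 7.75 to 9.57 and Krt19 below 3.8. The part of these shifts in the results below was not tested. The β-actin probe sets, whose difference between the 3′ and 5′ ends reflects the integrity of the RNA, gave 1.22 to 1.39 in the arrays of 24 h. At 72 h they gave 0.637 to 0.733 in the 3 vehicle arrays and 0.819 to 0.894 in the 6 EMD arrays, without overlap, while the same difference for Gapdh overlapped (0.141 to 0.183 and 0.119 to 0.216). This sign of RNA quality thus moved with time and, at 72 h, with EMD, and cannot be told apart from them; its part in the results was not tested.

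**Figure D1:**
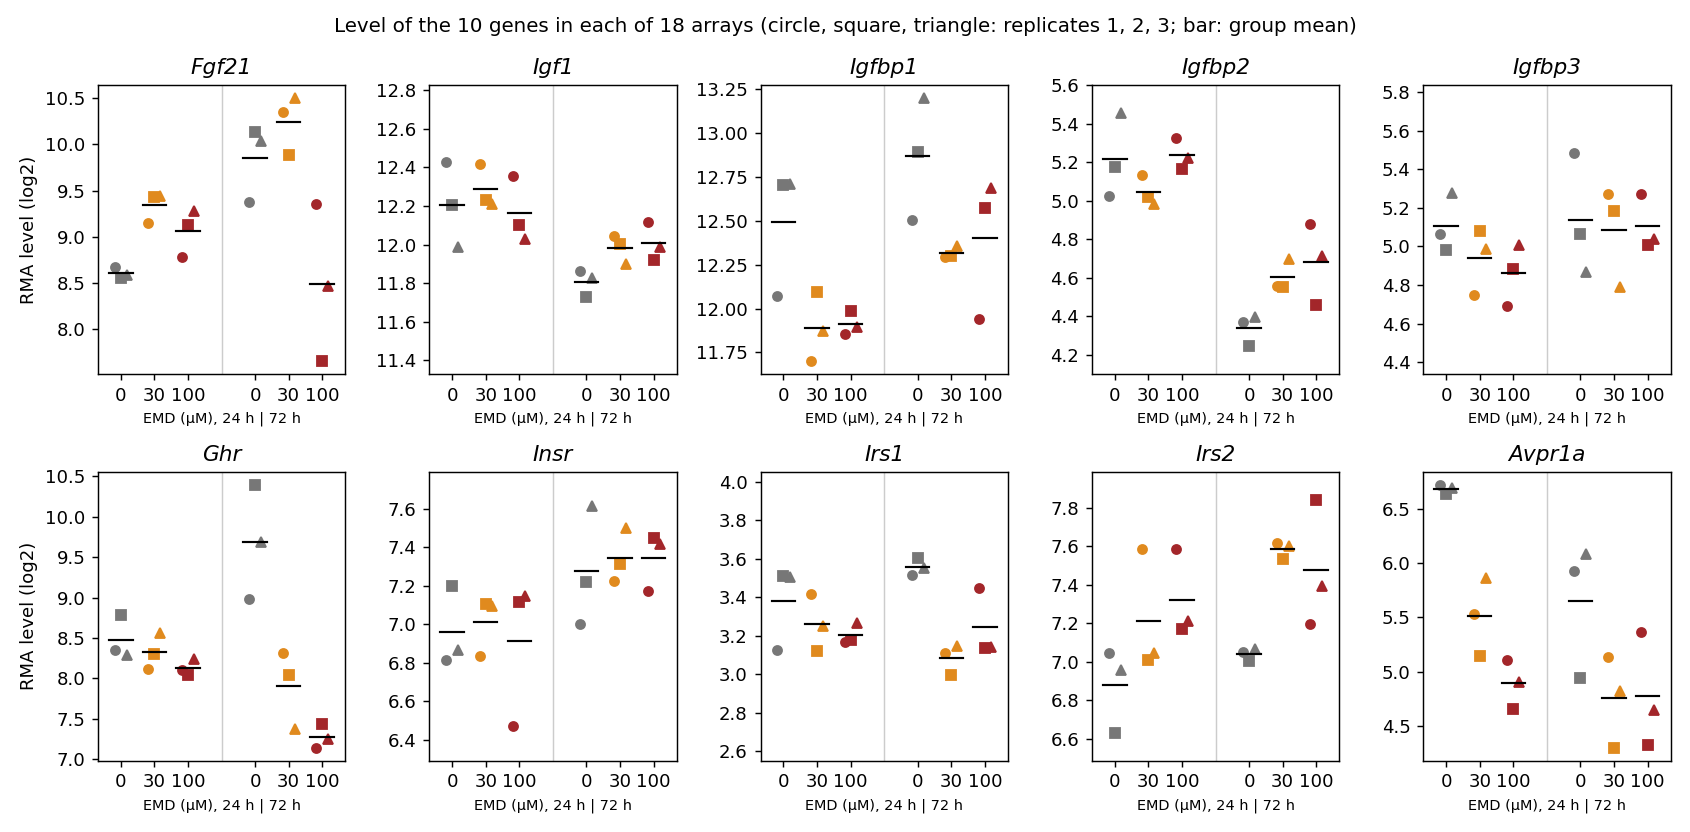
Level (RMA value, log2) of the 10 genes in each of the 18 arrays, with EMD dose in µM on the x axis and 24 h left of the grey line, 72 h right of it. Circles, squares and triangles stand for replicates 1, 2 and 3 and bars for group means; the vertical axes differ between panels. Ghr was highest in the 3 vehicle arrays of 72 h (8.98 to 10.39), and Avpr1a in those of 24 h (6.65 to 6.73).

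The growth hormone receptor gene Ghr fell with EMD at 72 h, with log2 changes of -1.78 and -2.41 at 30 and 100 µM, the vasopressin receptor gene Avpr1a fell at 24 h at both doses, and Fgf21 fell at 72 h at 100 µM alone among the 4 comparisons with vehicle. Igf1, Igfbp1, Igfbp3 and Insr passed the test in none of these 4 comparisons through their main probe sets. With the replicate number as a block, Igfbp1 was lower past the test in all 4. A gene is said to rise or fall where the adjusted p of limma's test over all 31042 probe sets was under 0.05, changes are differences of log2 group means ± SE with 3 arrays in each group, and the 2 doses at a time were set against the same 3 vehicle arrays, so a chance deviation of these enters both.

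At 24 h, 1 of the 10 genes fell and 0 rose at 30 µM EMD, beside 5.36% of all probe sets called, and 1 fell and 0 rose at 100 µM, beside 6.01%. At 72 h, 3 genes fell and 1 rose at 30 µM, beside 17.1%, and 2 fell and 1 rose at 100 µM, beside 17.1%. Of the 16640 probe sets left after dim ones were set aside, 30.9% and 31.1% were called at 72 h, so the members' counts are close to that background, and at 24 h 1 gene of 10 is as near to the background as a count of 10 allows. Between the doses 0 of the 10 genes differed at 24 h, where 0% of all probe sets were called and 4.58% had an unadjusted p under 0.05, with 0 of the 10 genes among them. At 72 h 1 gene differed between the doses, beside 3.1%. In vehicle cultures 2 genes rose and 3 fell from 24 to 72 h, beside 21.7%. The response to EMD differed between 72 and 24 h for 0 of the 10 genes at 30 µM, beside 0.941%, and for 1 gene at 100 µM, beside 0.693%. In each, 3 of the 10 had an unadjusted p under 0.05, beside 12.6% of all probe sets at 30 µM and 11.6% at 100 µM.

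**Figure D2:**
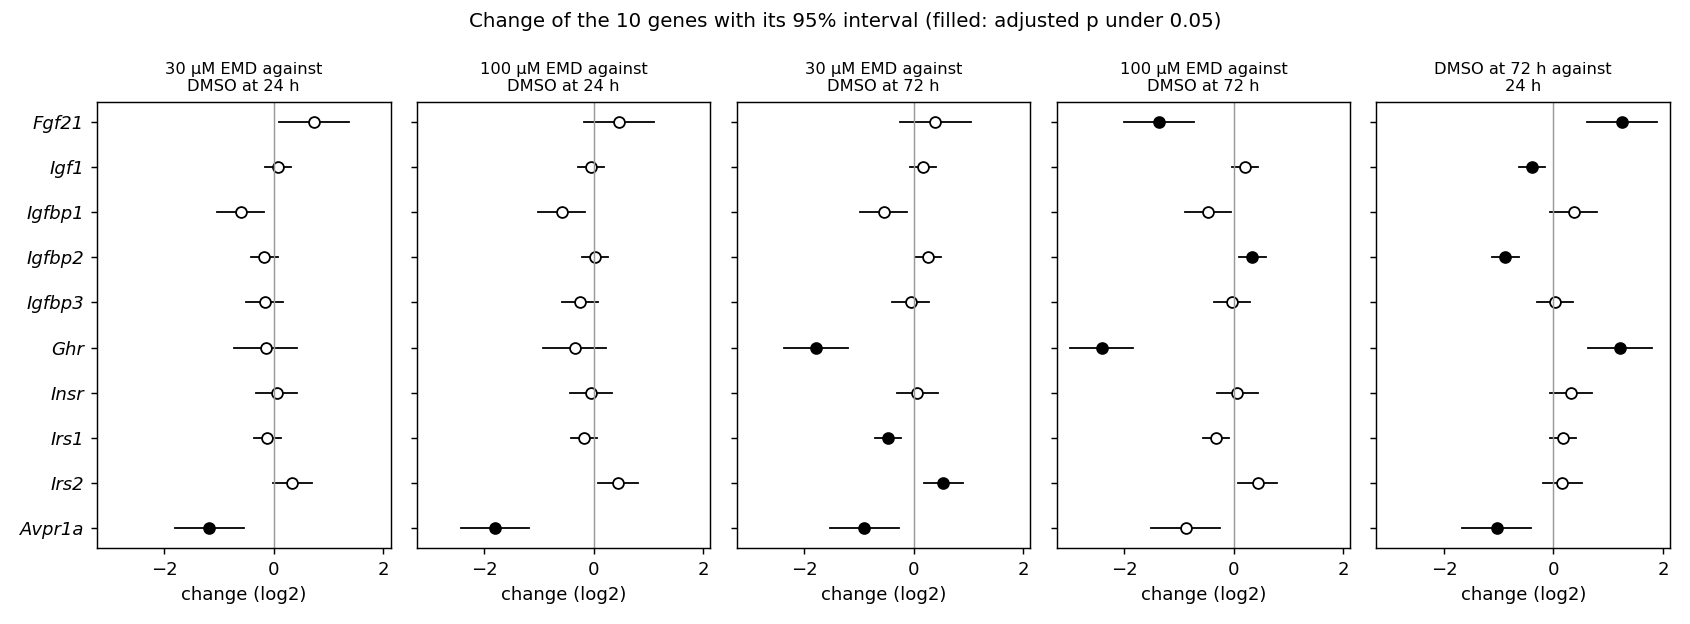
Change of the 10 genes (main probe set) in the 4 comparisons of EMD with DMSO and in DMSO between the times, as a log2 difference of group means on the x axis with its 95% interval from the limma fit. Filled points passed an adjusted p of 0.05. The fall of Ghr at 72 h reached -2.41 at 100 µM, and Igfbp1 lay between -0.47 and -0.61 in all 4 comparisons with vehicle without passing in this fit.

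Fgf21, the fasting hormone, was among the brighter probe sets, above 91.6% of them. In vehicle it read 8.67, 8.55 and 8.59 at 24 h and 9.38, 10.13 and 10.03 at 72 h. At 30 µM EMD it read 9.15, 9.43 and 9.45 at 24 h and 10.35, 9.89 and 10.50 at 72 h. At 100 µM it read 8.78, 9.13 and 9.28 at 24 h and 9.35, 7.65 and 8.47 at 72 h. All 6 arrays with EMD at 24 h thus lay above the 3 vehicle arrays, while at 72 h the 3 arrays of 100 µM lay below the vehicle arrays, replicate 1 only just (9.35 against a lowest vehicle value of 9.38), and below those of 30 µM.

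The differences from vehicle at 24 h did not pass the test. They were 0.74 ± 0.30 at 30 µM (adjusted p = 0.21) and 0.46 ± 0.30 at 100 µM (adjusted p = 0.52), while 30 µM at 72 h gave 0.40 ± 0.30 (adjusted p = 0.45). The first of these passed with only the compared groups in the fit (adjusted p = 0.0074). At 72 h, 100 µM EMD lowered Fgf21 by 1.36 ± 0.30 against vehicle, a 2.56-fold lower level (adjusted p = 0.0045), and by 1.75 ± 0.30 against 30 µM, 3.37-fold lower (adjusted p = 0.0061). With only the groups compared in the fit, these adjusted p were 0.077 and 0.09. The β-actin difference given above also set the 72 h arrays of 100 µM (0.840 to 0.852) apart from vehicle, and its part was not tested. The response to 100 µM differed between the times by -1.82 ± 0.43 (adjusted p = 0.069), which passed without vehicle 72 h replicate 1 (0.034) or 100 µM 72 h replicate 1 (0.0027), and that to 30 µM by -0.34 ± 0.43 (adjusted p = 0.80). The difference at 100 µM also passed with array weights (0.0043) and with the replicate number as a block (0.038). In vehicle Fgf21 rose by 1.25 ± 0.30 from 24 to 72 h (adjusted p = 0.0081).

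Ghr, the receptor through which growth hormone acts, gave the largest change of the 10 genes. In vehicle its main probe set read 8.35, 8.78 and 8.29 at 24 h and 8.98, 10.39 and 9.69 at 72 h. At 30 µM EMD it read 8.11, 8.30 and 8.56 at 24 h and 8.31, 8.04 and 7.37 at 72 h. At 100 µM it read 8.10, 8.04 and 8.24 at 24 h and 7.14, 7.44 and 7.25 at 72 h. At 24 h the arrays of 100 µM lay just below those of vehicle. The vehicle arrays of 72 h were the highest of all 18, and every EMD array of 72 h lay below every one of them.

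Against vehicle at 72 h, Ghr changed by -1.78 ± 0.27 at 30 µM (adjusted p = 0.00019), 3.44-fold lower, and by -2.41 ± 0.27 at 100 µM (adjusted p = 1e-05), 5.31-fold lower. Both calls held without any 1 array and under every other setting tried. At 24 h the differences were -0.15 ± 0.27 (adjusted p = 0.87) and -0.35 ± 0.27 (adjusted p = 0.61). The response to 100 µM differed between the times by -2.06 ± 0.39 (adjusted p = 0.022), a call lost without vehicle 72 h replicate 2, vehicle 24 h replicate 3, 100 µM 24 h replicate 3 or 100 µM 72 h replicate 3 (adjusted p = 0.051 to 0.07), with only the groups compared in the fit (0.051) and with the mean of the gene's probe sets (0.12). For 30 µM this difference was -1.63 ± 0.39 (adjusted p = 0.059), and it passed without vehicle 72 h replicate 1 (0.0083) or 30 µM 72 h replicate 1 (0.04). It also passed with array weights (0.011), the replicate number as a block (0.022) and dim probe sets left out (0.049). The doses did not differ past the test, by -0.63 ± 0.27 at 72 h (adjusted p = 0.28).

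Over time in vehicle Ghr rose by 1.21 ± 0.27 from 24 to 72 h (adjusted p = 0.0051). The other probe set of Ghr was dimmer and more scattered. It read 6.92, 8.47 and 8.59 in vehicle at 72 h, 7.42, 7.22 and 6.95 at 30 µM and 6.51, 6.90 and 6.75 at 100 µM. Its change at 72 h was -0.79 ± 0.39 at 30 µM, which did not pass (adjusted p = 0.20; -1.33 and 0.011 without vehicle replicate 1), and -1.27 ± 0.39 at 100 µM (adjusted p = 0.031), and its rise in vehicle was 1.27 ± 0.39 (adjusted p = 0.027). Omitting any array other than vehicle replicate 1 ended the call at 100 µM (adjusted p = 0.057 to 0.14), and that in vehicle was lost without 4 of the 6 (0.073 to 0.12; it held without 24 h replicate 2 or 72 h replicate 1). The mean of the 9 hepatocyte markers also moved at 72 h, from 12.93 in vehicle to 12.42 and 12.28 with EMD, and the β-actin difference between the ends from at most 0.733 in vehicle to at least 0.819, and their part in the fall of Ghr was not tested. The markers moved unequally, with group means of 14.63 to 14.76 for Alb and 11.05 to 13.63 for Ahsg over all groups. At 72 h 1 rose and 5 fell at 30 µM, and 0 rose and 5 fell at 100 µM, beside 17.1% of all probe sets called at each dose. In bulk RNA, fewer cells of a type and less RNA per cell cannot be told apart.

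Igf1, the main hormone that growth hormone induces in the liver, was brighter than 99.1% of the probe sets through its main probe set, and it passed no test with EMD. This probe set read 11.86, 11.73 and 11.83 in vehicle at 72 h, 12.04, 12.01 and 11.90 at 30 µM and 12.12, 11.92 and 11.98 at 100 µM. The arrays with EMD at 72 h all lay above the vehicle arrays, yet the differences of 0.18 ± 0.11 (adjusted p = 0.35) and 0.20 ± 0.11 (adjusted p = 0.26) did not pass. Their 95% intervals ran from -0.06 to 0.41 and from -0.03 to 0.44. At 24 h the differences were 0.08 ± 0.11 (adjusted p = 0.80) and -0.04 ± 0.11 (adjusted p = 0.92).

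The dimmest probe set of Igf1 moved otherwise. It read 7.76, 7.95 and 7.23 in vehicle at 24 h, 8.70, 8.59 and 8.56 at 30 µM and 8.37, 8.34 and 8.27 at 100 µM. It rose by 0.97 ± 0.17 at 30 µM (adjusted p = 0.002), by 0.68 ± 0.17 at 100 µM (adjusted p = 0.026) and, at 72 h, by 0.57 ± 0.17 at 30 µM (adjusted p = 0.03), with 0.48 ± 0.17 at 100 µM (adjusted p = 0.07). The call at 100 µM and 24 h was lost without vehicle replicate 3 or any 1 of the EMD arrays (adjusted p = 0.062 to 0.12), and that at 30 µM and 72 h without 30 µM replicate 1 or 2 or vehicle replicate 3 (0.088 to 0.14). With only the groups compared in the fit these 2 calls were also lost (0.065 and 0.07). The third probe set, in between, gave 0.65 ± 0.22 (adjusted p = 0.12, and 0.045 without vehicle replicate 1), 0.35 ± 0.22 (0.50), 0.47 ± 0.22 (0.18) and 0.22 ± 0.22 (0.58) in the same order. The 3 probe sets of Igf1 therefore disagreed on EMD, and the mean of them passed at 30 µM and 24 h alone of these 4 comparisons (adjusted p = 0.037). In vehicle the main probe set fell by 0.40 ± 0.11 over time (adjusted p = 0.018), a call lost without 24 h replicate 1 (0.088) or 72 h replicate 2 (0.068) and with the mean of the probe sets, which changed by -0.02 (0.93); the other probe sets gave 0.12 and 0.20 (0.74 and 0.44).

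**Figure D3:**
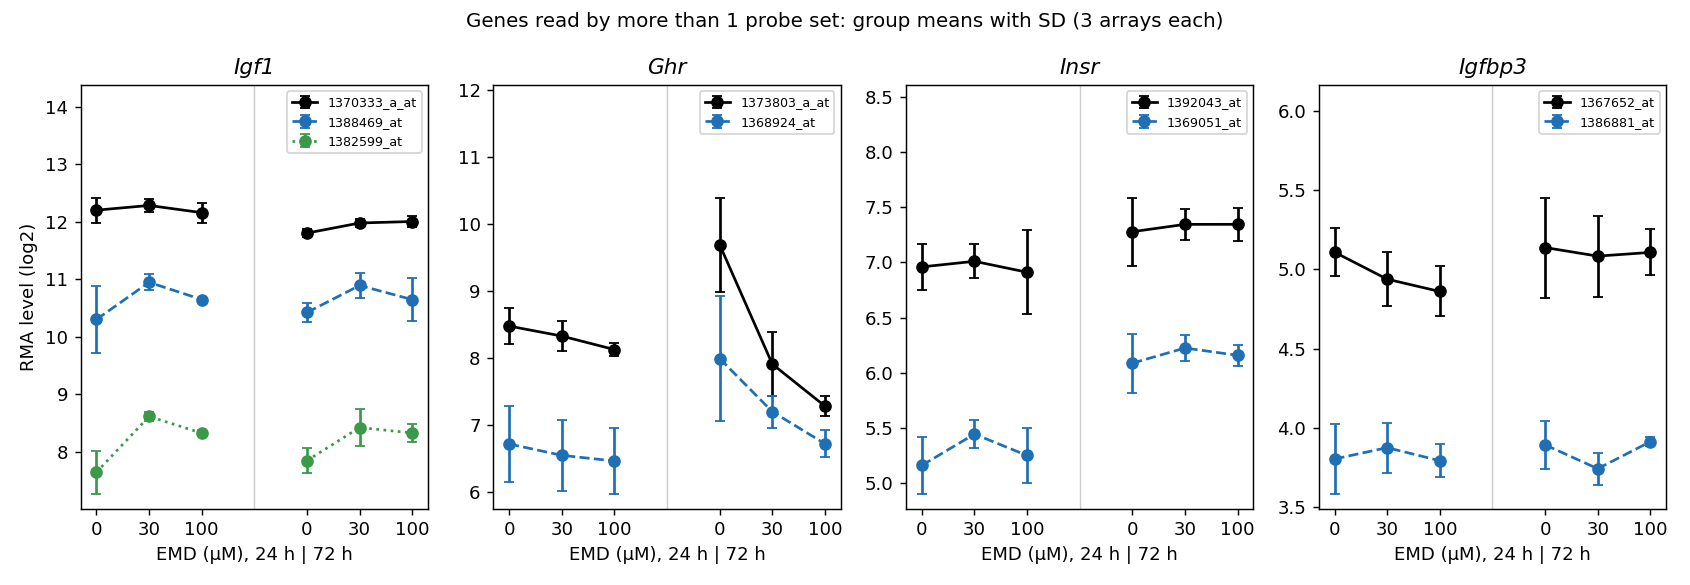
Group means of every probe set of the 4 genes that had more than 1, as RMA levels (log2) with SD over 3 arrays, against EMD dose in µM at 24 h (left of the grey line) and 72 h (right). The brightest probe set of Igf1 stayed between 11.81 and 12.29 while the dimmest moved between 7.65 and 8.62, and both probe sets of Ghr were highest in vehicle at 72 h.

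Igfbp1, the carrier that binds IGF1 in short-term response to insulin and stress, was as bright as Igf1. In vehicle it read 12.07, 12.71 and 12.71 at 24 h and 12.51, 12.89 and 13.20 at 72 h. At 30 µM EMD it read 11.70, 12.10 and 11.87 at 24 h and 12.29, 12.30 and 12.36 at 72 h. At 100 µM it read 11.86, 11.99 and 11.90 at 24 h and 11.94, 12.57 and 12.69 at 72 h. Group means with EMD were lower in all 4 comparisons, and the arrays did not overlap with vehicle at 100 µM and 24 h or at 30 µM and 72 h.

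None of these differences passed the test. They were -0.61 ± 0.20 and -0.58 ± 0.20 at 24 h (adjusted p = 0.11 and 0.12) and -0.55 ± 0.20 and -0.47 ± 0.20 at 72 h (adjusted p = 0.076 and 0.14). Replicate 1 was the lowest vehicle array at both times, so that leaving it out has to enlarge the differences. Without it the differences were -0.82 and -0.80 at 24 h (adjusted p = 0.026 and 0.028) and -0.73 and -0.65 at 72 h (0.028 and 0.05), and all 4 then passed. With array weights all but the last passed (adjusted p = 0.042, 0.046 and 0.02). With the replicate number as a block all 4 passed (adjusted p = 0.011, 0.013, 0.0083 and 0.023). In each of the first 3 comparisons these were the only 3 of 14 alternatives that passed. Over all alternatives the adjusted p reached 0.3, 0.33, 0.28 and 0.46 in the same order.

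Igfbp2 and Igfbp3, carriers of IGFs in blood, were near the median of all values, with means of 4.85 and 5.04. Igfbp2 fell over time in vehicle, from 5.02, 5.17 and 5.45 to 4.37, 4.25 and 4.40, a change of -0.88 ± 0.11 (adjusted p = 6.4e-05) with no overlap. With 100 µM EMD at 72 h it read 4.88, 4.46 and 4.71, 0.34 ± 0.11 above vehicle (adjusted p = 0.048). Only without 100 µM replicate 2 did this call survive the loss of an array (adjusted p = 0.065 to 0.17 otherwise), and it was also lost with only the groups compared in the fit (0.13), with cyclic loess (0.072) and with a trend of the variance (0.056). At 30 µM the difference was 0.26 ± 0.11 (adjusted p = 0.14). Igfbp3 passed in 0 of the 9 comparisons through either probe set, and its differences from vehicle lay between -0.25 and -0.03, each ± 0.16.

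The insulin receptor Insr passed in none of the comparisons of EMD with vehicle. Its main probe set, with a mean of 7.14, gave differences from -0.05 to 0.07, each ± 0.18, with 95% intervals that reached from -0.43 to 0.45. Its dimmer probe set read 4.99, 5.03 and 5.45 in vehicle at 24 h and 5.78, 6.19 and 6.28 at 72 h. It thus rose by 0.93 ± 0.15 with time (adjusted p = 0.00046) without overlap, while the main probe set gave 0.32 ± 0.18 (adjusted p = 0.22) and the mean of both 0.62 (0.0083).

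The adaptors Irs1 and Irs2, which pass the insulin signal on, moved in opposite directions at 30 µM and 72 h. Irs1 was dim, with 9.48% of all probe sets below it, and read 3.52, 3.61 and 3.55 in vehicle at 72 h, 3.11, 2.997 and 3.14 at 30 µM and 3.45, 3.14 and 3.14 at 100 µM. It fell by 0.47 ± 0.11 at 30 µM (adjusted p = 0.0068), and 100 µM gave -0.32 ± 0.11 (adjusted p = 0.065), or -0.42 without 100 µM replicate 1 (0.016). That difference passed with cyclic loess (0.038), a trend of the variance (0.048), array weights (0.0051) and the mean of probe sets (0.049). At this level the values sit close to background, where differences are compressed. Irs2 read 7.05, 7.001 and 7.07 in vehicle at 72 h, 7.61, 7.53 and 7.60 at 30 µM and 7.20, 7.84 and 7.39 at 100 µM. All 6 EMD arrays of 72 h lay above the 3 vehicle arrays. Irs2 rose by 0.54 ± 0.17 at 30 µM (adjusted p = 0.036), which no longer passed when any 1 of the 6 arrays was omitted (0.068 to 0.099), while 100 µM gave 0.44 ± 0.17 (adjusted p = 0.094), or 0.58 without 100 µM replicate 1 (0.032), and 0.44 with array weights (0.034). At 24 h Irs2 differed from vehicle by 0.34 ± 0.17 and 0.44 ± 0.17 (adjusted p = 0.35 and 0.17), and Irs1 by -0.12 ± 0.11 and -0.18 ± 0.11 (0.69 and 0.50).

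Avpr1a, the vasopressin receptor that raises calcium and glycogen breakdown in hepatocytes, was the gene of the 10 that fell at 24 h. In vehicle it read 6.73, 6.65 and 6.70 at 24 h and 5.93, 4.94 and 6.09 at 72 h. At 30 µM EMD it read 5.53, 5.14 and 5.86 at 24 h and 5.14, 4.30 and 4.82 at 72 h. At 100 µM it read 5.11, 4.65 and 4.91 at 24 h and 5.37, 4.32 and 4.64 at 72 h. Vehicle arrays of 24 h stood clear of all others, whereas at 72 h vehicle replicate 2 lay among the EMD arrays. The mean of Avpr1a, 5.38, was near the median of all values, 5.08. Its group means at 100 µM and 24 h (4.89) and with EMD at 72 h (4.75 and 4.78) lay below that median. Low values are compressed, and the part of this in the changes below was not tested.

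At 24 h Avpr1a changed by -1.18 ± 0.30 at 30 µM (adjusted p = 0.026), 2.26-fold lower, and by -1.80 ± 0.30 at 100 µM (adjusted p = 0.0009), 3.49-fold lower. The first call did not survive the loss of an array other than 30 µM replicate 3 (adjusted p = 0.063 to 0.14), and the second held in every setting tried. The hepatocyte markers were also lower with EMD at 24 h, with group means of 12.67 and 12.64 against 12.90 and no overlap, and the part of this shift was not tested. At 72 h Avpr1a fell by 0.90 ± 0.30 at 30 µM (adjusted p = 0.046), a call lost without vehicle replicate 1 or 3 or 30 µM replicate 2 or 3 (0.092 to 0.21), with array weights (0.083), with a trend of the variance (0.066) and with only the groups compared in the fit (0.10). At 100 µM the difference at 72 h was -0.88 ± 0.30 (adjusted p = 0.053), and without vehicle replicate 2 or 100 µM replicate 1 it was -1.23 or -1.17 (0.0071 and 0.0099). It passed with cyclic loess, equal array medians, dim probe sets left out and the mean of probe sets (0.039 to 0.048). With the replicate number as a block its adjusted p was 0.0027. In vehicle Avpr1a fell by 1.04 ± 0.30 over time (adjusted p = 0.02), and without 72 h replicate 2 by 0.68 (0.11); it also missed the test without 24 h replicate 3 (0.051). The response to EMD did not differ between the times past the test, by 0.28 ± 0.42 at 30 µM and 0.93 ± 0.42 at 100 µM (adjusted p = 0.85 and 0.40).

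Of the 10 genes, Fgf21 alone differed between the doses, at 72 h. At 24 h Avpr1a gave the largest difference between 100 and 30 µM, -0.62 ± 0.30, with 3 arrays of 100 µM below the 3 of 30 µM, and the other 9 genes lay between -0.28 and 0.19. At 72 h Ghr followed Fgf21 with -0.63 ± 0.27, and the other 8 genes lay between -0.11 and 0.16. The widest 95% interval among the other 8 genes at 72 h was that of Avpr1a, -0.60 to 0.65, and the narrowest that of Igf1, -0.21 to 0.26. Differences inside a gene's own interval could not be resolved with these arrays.

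The signalling partners of these receptors were read through lists of genes, each through its brightest probe set. Of 11 measured growth hormone signalling genes 0 rose and 2 fell at 24 h at either dose, beside 5.36% and 6.01% of all probe sets called: Stat5b, the factor that carries the signal to Igf1, fell by 0.52 ± 0.09 and 0.49 ± 0.09 (adjusted p = 0.001 and 0.0016), and Stat3 by 0.59 ± 0.12 and 0.58 ± 0.12 (0.0067 and 0.0067; the call at 30 µM was lost without 30 µM replicate 2, 0.051). At 72 h 1 rose and 5 fell at 30 µM, and 0 rose and 3 fell at 100 µM, beside 17.1% at each dose. Among brighter probe sets the shares were 30.9% and 31.1%. Jak2, the kinase bound to the growth hormone receptor, fell by 0.67 ± 0.12 and 0.49 ± 0.12 (adjusted p = 0.00056 and 0.0069). Prlr, the related prolactin receptor, rose by 0.91 ± 0.22 at 30 µM (0.0068). Socs2, a feedback inhibitor that growth hormone induces, fell by 0.82 ± 0.26 and 0.84 ± 0.26 (0.04 and 0.035), calls lost without 5 and 4 of the 6 arrays, and without vehicle 72 h replicate 1 its changes were -0.42 and -0.44 (0.21 and 0.18). Its mean level of 4.09 lay below the median of all values. Both calls were also lost with a trend of the variance (0.057 and 0.051) and with only the compared groups (0.13 and 0.19). The medians of the list were -0.11, -0.04, -0.28 and -0.05 in the 4 comparisons, beside -0.03, -0.01, 0.01 and 0.02 for all probe sets.

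Liver genes of the rat listed here as growth hormone-dependent did not all move in 1 direction. The list was not split by the direction in which growth hormone acts on each gene. Its counts and medians therefore do not measure the action of the hormone. Of 9 measured, 0 rose and 1 fell at 24 h at either dose, 2 rose and 1 fell at 30 µM and 72 h, and 0 rose and 3 fell at 100 µM and 72 h, beside 5.36%, 6.01%, 17.1% and 17.1% of all probe sets, and the 3 of 9 called at 72 h are close to the 30.9% and 31.1% among brighter probe sets. The medians were -0.41, -0.38, 0.01 and -0.53. Cyp2c11, the male-predominant cytochrome P450, fell by 3.56 ± 0.35 at 30 µM and 3.48 ± 0.35 at 100 µM at 72 h (adjusted p = 2e-06 and 3.1e-06). Hsd3b5 fell by 0.97 ± 0.22 and 0.98 ± 0.22 at 24 h (0.014 and 0.013), calls lost without 2 of the 6 arrays each (0.055 to 0.068), and by 1.19 ± 0.22 at 100 µM and 72 h (0.0012). Cyp2c13 and Cyp3a2 rose at 30 µM and 72 h by 1.32 ± 0.35 and 1.07 ± 0.29 (0.013 and 0.015; lost without 2 and 3 of the 6 arrays, with 0.05 to 0.08), and Cyp2a2 fell at 100 µM by 1.73 ± 0.30 (0.00063). Probes for cytochromes of 1 subfamily can bind near-identical transcripts, so the values of these genes are uncertain.

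**Figure D4:**
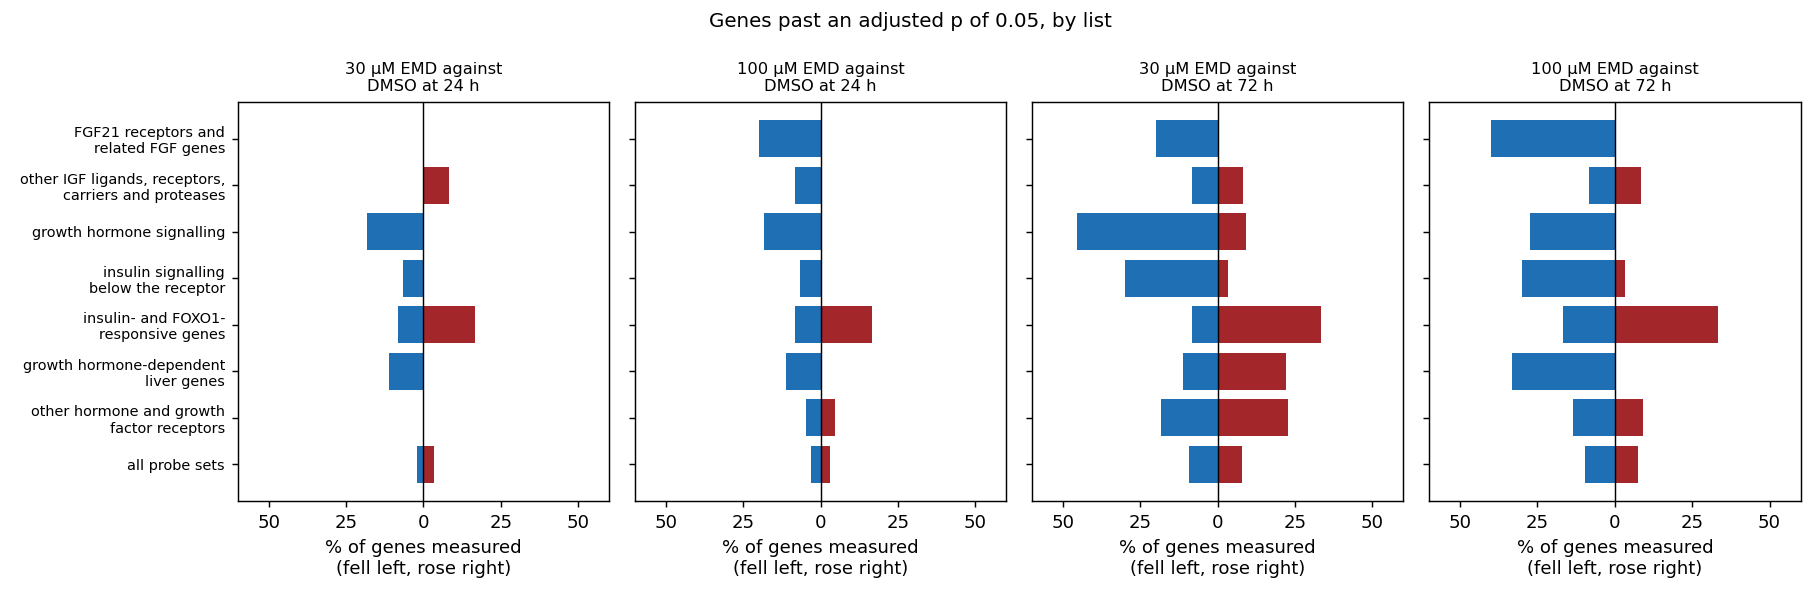
Share of the measured genes of each list (5 to 30 genes) that rose (right, red) or fell (left, blue) past an adjusted p of 0.05 in the 4 comparisons of EMD with DMSO, in percent of the genes measured, with all 31042 probe sets at the foot. The growth hormone signalling list had 5 of 11 genes lower at 30 µM and 72 h, and insulin signalling 9 of 30 at both doses.

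Of 30 measured genes of insulin signalling below the receptor, 0 rose and 2 fell at 24 h at either dose, and 1 rose and 9 fell at 72 h at either dose, with medians from -0.18 to -0.09. All probe sets were called at 5.36% and 6.01% at 24 h and at 17.1% at 72 h, and the 10 of 30 called at 72 h are close to the 30.9% and 31.1% among brighter probe sets. The list holds genes that carry the signal and genes that restrain it, so its counts and medians do not measure the action of insulin. Enpp1, a pyrophosphatase reported to inhibit the insulin receptor, fell in all 4 comparisons, by 0.60 and 0.64 at 24 h and by 1.29 and 0.82 at 72 h, each ± 0.12 (adjusted p = 0.0035, 0.002, 6.4e-07 and 9.4e-05). At 72 h the adaptor Grb10 fell by 0.63 ± 0.14 at 30 µM (0.0051) and its relative Grb14 by 0.83 ± 0.13 at 100 µM (0.00024), both of which bind and restrain the receptor. Rictor, a subunit of the kinase complex that activates AKT, fell by 0.76 ± 0.15 and 0.74 ± 0.15 (0.002 and 0.0028), and the pseudokinase gene Trib1 by 0.79 ± 0.13 at 30 µM (0.00035). Akt2, the main AKT kinase of insulin action in liver, rose by 0.68 ± 0.10 at 100 µM (0.00022). The phosphatase gene Ptpn1 fell at 24 h by 0.36 ± 0.10 and 0.39 ± 0.10 (0.042 and 0.027), calls lost without 5 of the 6 arrays at each dose (0.052 to 0.17).

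Of 12 measured insulin- and FOXO1-responsive genes, 2 rose and 1 fell at 24 h at either dose, and 4 rose with 1 lower at 30 µM and 2 lower at 100 µM at 72 h, beside the same 5.36%, 6.01% and 17.1% of all probe sets, with medians of -0.04, 0.14, -0.04 and 0.09. Among brighter probe sets 30.9% and 31.1% were called at 72 h. This list was not split by the direction in which insulin acts on each gene either, so its counts and medians do not measure that action. Those that rose included Pdk4, which encodes a kinase that blocks pyruvate oxidation and is also known as a PPARα target, by 6.03 ± 0.19 and 6.24 ± 0.19 at 24 h and 4.40 ± 0.19 at both doses at 72 h (adjusted p = 2e-12, 1.4e-12, 9.3e-11 and 1.2e-10). Mttp, the lipid transfer protein of lipoprotein assembly, rose by 1.37 to 1.82 in the 4 comparisons (adjusted p from 3.5e-09 to 1.5e-07). At 72 h Angptl8, which insulin raises, rose by 1.26 ± 0.23 and 1.14 ± 0.23 (0.00075 and 0.0018) and Srebf1, the lipogenic factor that insulin also raises, by 1.10 ± 0.25 at 30 µM (0.005). Sesn1 fell by 0.90 ± 0.14 and 1.05 ± 0.14 at 24 h (0.00043 and 9.4e-05) and by 0.91 ± 0.14 at 100 µM and 72 h (0.00017).

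The receptors of FGF21 and their partners were measured through 5 genes. None rose, and 0, 1, 1 and 2 of them fell at 30 and 100 µM at 24 h and then at 72 h, beside 5.36%, 6.01%, 17.1% and 17.1% of all probe sets called. Among brighter probe sets the shares at 72 h were 30.9% and 31.1%. Fgfr3 fell by 1.25 ± 0.30 at 30 µM and 1.21 ± 0.30 at 100 µM at 72 h (adjusted p = 0.0076 and 0.0097), the latter moving to -0.75 without 100 µM replicate 3 and -1.65 without 100 µM replicate 1 (0.045 and 0.00012) and missing the test with only the compared groups (0.11), and by 1.05 ± 0.30 at 100 µM and 24 h (0.049), a call lost without 5 of the 6 arrays (0.10 to 0.20). Fgfr4, the main FGF receptor of hepatocytes, fell by 0.82 ± 0.22 at 100 µM and 72 h (0.015), a call lost without vehicle replicate 1 or 100 µM replicate 2 or 3 (0.054 to 0.09). Klb, the coreceptor that FGF21 needs, was not analysed here.

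Of 12 other measured genes of the IGF system, 1 rose and 0 fell at 30 µM and 24 h, 0 rose and 1 fell at 100 µM and 24 h, and 1 rose and 1 fell at 72 h at either dose, which in each case is 1 or 2 genes of 12 beside 5.36%, 6.01% and 17.1% of all probe sets. The 3 that changed encode regulators of IGF carriers. Stc1, a stanniocalcin and so an inhibitor of the protease that releases IGFs from IGFBP4, rose at 30 µM by 1.64 ± 0.33 at 24 h and 1.37 ± 0.33 at 72 h (adjusted p = 0.0051 and 0.0076). Its relative Stc2 rose by 1.44 ± 0.37 at 100 µM and 72 h (0.011), a call lost without vehicle replicate 2 or 100 µM replicate 3 (0.056 and 0.061). Htra1, a secreted protease known to cleave IGF-binding proteins, fell by 0.78 ± 0.22 at 100 µM and 24 h (0.045, lost without 4 of the 6 arrays) and at 72 h by 0.81 ± 0.22 at 30 µM (0.016, lost without 3 of the 6) and 1.60 ± 0.22 at 100 µM (7.1e-05).

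Among 22 other hormone and growth factor receptors, 0 changed at 30 µM and 24 h, 1 rose and 1 fell at 100 µM and 24 h, 5 rose and 4 fell at 30 µM and 72 h, and 2 rose and 3 fell at 100 µM and 72 h, beside 5.36%, 6.01%, 17.1% and 17.1% of all probe sets. Brighter probe sets were called at 30.9% and 31.1% at 72 h. Gcgr, the receptor of glucagon, changed by -1.79 ± 0.29 and -2.10 ± 0.29 at 72 h (adjusted p = 0.00034 and 8.2e-05) and by -1.11 ± 0.29 at 100 µM and 24 h (0.031, lost without 5 of the 6 arrays), and the shift of the β-actin difference at 72 h stands beside it too. Egfr, the receptor of epidermal growth factor, fell by 1.05 ± 0.18 and 1.17 ± 0.18 at 72 h (0.00047 and 0.0002), and Met, the receptor of hepatocyte growth factor, by 0.97 ± 0.15 at 100 µM (0.00022). Adra1b, which shares the calcium pathway of Avpr1a, rose by 1.05 ± 0.19 at 30 µM and 72 h (0.00095). Glp2r rose by 1.49 ± 0.14 and 0.96 ± 0.14 at 72 h (1.1e-06 and 0.00013), at a mean level of 4.49, below the median of all values. Adipor2, an adiponectin receptor, rose by 0.60 ± 0.11 at 100 µM and 24 h (0.0021).

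For the 3 genes whose group means spanned at least 1 on the log2 scale, the genes with the most similar pattern over the 6 group means were found among 1817 others with such a span, by the root mean square difference after each gene's mean was taken off. For Fgf21 these were Bbox1 (0.14), Sult2a6 (0.16) and Mfsd2a (0.22). For Ghr they were Eif4ebp3 (0.21), Pon3 (0.22) and Pcdh18 (0.23), and for Avpr1a Tnk2 (0.18), Cdh2 (0.22) and Topbp1 (0.25), all in log2 units. The group means come from the same 18 arrays, so this likeness is a description.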

How the data were processed

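RNA of 18 cultures was hybridised to Affymetrix whole-genome rat arrays. The authors ran RMA in Expression Console, using Affymetrix's rat library file, and deposited its log2 values. RMA corrects background, equalises the distributions of the arrays and condenses each probe set to 1 value, so shifts common to most genes are removed, and low values are compressed. It gives no detection call. No version of the software is stated in what was read here.

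Groups were read from the sample labels. These values entered limma 3.58.1 under R 4.3.3 with nothing further done to them (all 6 groups in 1 fit, moderated statistics by eBayes, two-sided, Benjamini-Hochberg over 31042 probe sets without the control probe sets, threshold 0.05). The 9 comparisons were each dose with DMSO at each time, the doses at each time, DMSO between the times, and the response of each dose between the times (interaction). The study's methods give no test for single genes. Intervals are at 95%. The fit was tested on simulated data. Symbols are those of GEO's platform annotation, which gave 1 symbol to 20826 probe sets, several to 436 and none to 9780, and RefSeq (GRCr8) supplied promoters.

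The members and the gene lists (7 pathway lists, 5 marker lists) were chosen with earlier results of these data known. All 10 members are named in each comparison, up to 4 called genes with the largest change for each pathway list, and up to 3 most similar genes. Alternatives were cyclic loess, equal array medians, a replicate block, a variance trend with robust moderation, array weights, dim probe sets left out, the mean of a gene's probe sets, only the compared groups in the fit, and leaving out each array.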

Additional observations from a re-analysis of the deposited data

Results flagged for a closer look

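The response of Ghr to 100 µM EMD was lower at 72 h than at 24 h by -2.06 ± 0.39 (log2, adjusted p = 0.022 by the interaction in limma), and the arrays without which it was not called are named with the gene above. The same test of the 2 times set apart 4 list genes. The rise of Pdk4 was smaller at 72 h, by -1.62 ± 0.27 at 30 µM and -1.84 ± 0.27 at 100 µM (adjusted p = 0.0081 and 0.0042), but with the mean of its probe sets these were -0.66 and -0.97 (0.22 and 0.077). Its level with EMD was not lower at 72 h, with group means of 12.15 and 12.36 at 24 h and 12.68 at both doses at 72 h. In vehicle it rose over time from 6.13 to 8.28, by 2.15 ± 0.19 (adjusted p = 1.2e-06). Cyp2c11 differed by -3.15 ± 0.50 and -2.78 ± 0.50 (0.0064 and 0.018; the latter lost without 4 of 12 arrays, 0.051 to 0.064). Glp2r differed by 1.18 ± 0.20 at 30 µM (0.0093), and Stat5b by 0.56 ± 0.12 at 100 µM (0.046, lost without 9 of 12 arrays, 0.052 to 0.14).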

How the results depend on the processing

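None of the members' or named list genes' changes turned direction while called, under any alternative. Over the settings other than leaving out an array, 1727 of 1830 values kept direction and side of the threshold, 56 lost a call, 29 gained one and 18 uncalled values changed sign. With 1 array left out these were 1369, 166, 14 and 89 of 1638. The cause of these changes was not tested, except that fewer arrays give less power.

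The counts of members called moved by over 1.5 times as follows, and under the settings not named here each stayed within that. At 30 µM and 24 h (1 gene) the count was 2 with the replicate block, array weights, the mean of all probe sets and only the compared groups. At 100 µM and 24 h (1) it was 2 with the block and array weights. At 100 µM and 72 h (3) it was 5 with the block, array weights and the mean of all probe sets, and 1 with only the compared groups. Between the doses at 72 h (1) it was 0 with only the compared groups. The response of 30 µM between the times (0) gave 1 with the block, array weights and dim probe sets left out. That of 100 µM (1) gave 2 with the block and array weights, and 0 with the mean of all probe sets and only the compared groups. Without 1 array, the counts ran in the order of the comparisons from 0 to 1 and 1 to 2 at 24 h, 2 to 3 and 2 to 5 at 72 h, 0 to 0 and 1 to 1 between the doses, 3 to 5 in DMSO, and 0 to 1 and 0 to 2 for the responses. Counts within 1.5 times could hold other genes. At 30 µM and 72 h (4) they ran from 3 to 5, with Avpr1a lost under the variance trend, array weights and only the compared groups, Igfbp1 gained under the block and array weights, Igfbp2 gained under array weights, and Irs1 not tested with dim probe sets left out. At 100 µM and 72 h cyclic loess gave 4, without Igfbp2 and with Irs1 and Avpr1a.

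The replicate block was tried because the labels share numbers 1 to 3 across groups. Among same-numbered arrays of 1 time there were 18 pairs, of which 16 deviated together with a correlation over 0.1 (median 0.37, lowest 0.01), against a median of -0.22 for different numbers, and 17 of 18 arrays were most like one of their own number. Arrays of 1 number thus tended to deviate together. No label ties a number to an animal, so the fit without the block stayed the main one, and its SE holds this shared deviation. For Igfbp1 at 30 µM and 24 h the SE was 0.202, against 0.138 with the block. With the block, Igfbp1 was called in all 4 comparisons with vehicle (adjusted p = 0.011, 0.013, 0.0083 and 0.023), as were Avpr1a at 100 µM and 72 h (0.0027), Ghr for 30 µM between the times (0.022) and Fgf21 for 100 µM (0.038). Other probe sets of Igf1 were called too, the middle one at 30 µM and 24 h (0.023) and the dimmest at 100 µM and 72 h (0.0099).

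Over all probe sets, the shares called moved with dim probe sets left out from 5.36% to 11%, 6.01% to 12.3%, 17.1% to 30.9% and 31.1%, 3.1% to 6.87%, 21.7% to 33.3%, 0.941% to 1.84% and 0.693% to 1.47%. With the block they were 0.00966% and 5.23% between the doses at 24 and 72 h, and 2.98% and 1.72% for the responses. With array weights they were 26.4% at 100 µM and 72 h, 0.029% and 10.7% between the doses, and 2.06% and 3.51% for the responses. With the mean of probe sets 4.7% differed between the doses at 72 h, and 1.71% and 1.13% between the responses. With only the compared groups they were 10.6% at 100 µM and 72 h, 0.454% between the doses at 72 h, 12.9% in DMSO and 0.245% for the response of 100 µM. Without 1 array, the shares reached 3.31% and 3.89% at 24 h (without replicate 2 of 30 and 100 µM), 0.454% and 8.19% between the doses at 72 h (without 100 µM replicate 2 or 1), 0.396% and 1.53% for the response of 30 µM, and 0.184% and 2.58% for that of 100 µM.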

Other observations

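In vehicle cultures the lists also changed between 24 and 72 h, where 21.7% of all probe sets were called and the β-actin 3′ to 5′ difference moved with time. Among brighter probe sets the share was 33.3%. Of 12 other IGF genes 2 rose and 4 fell. Igfbp4, a carrier that restrains IGFs, fell by 1.52 ± 0.19 (adjusted p = 4.8e-05), and Igf2r, which clears IGF2, by 0.73 ± 0.11 (0.00018). With the mean of its probe sets the change of Igf2r was -0.22 (0.16). Stc1 rose by 1.48 ± 0.33 (0.0046) and Igfbp7, an IGF-binding-related protein, by 2.14 ± 0.57 (0.014), the latter lost without 72 h replicate 1 or 24 h replicate 3 (0.07 and 0.058). Of 11 growth hormone signalling genes 1 rose and 3 fell, with Jak2 higher by 0.63 ± 0.12 (0.0012) and Stat5b lower by 0.77 ± 0.09 (1.4e-05). Of 22 other receptors 1 rose and 1 fell, and Met, the receptor of hepatocyte growth factor, rose by 2.14 ± 0.15 (1.3e-07). Of 30 insulin signalling genes 6 rose and 8 fell, with Grb10 higher by 0.67 ± 0.14 (0.0035) and Enpp1 lower by 0.64 ± 0.12 (0.001). Of 12 insulin- and FOXO1-responsive genes 5 rose and 1 fell, with Pdk4 higher by 2.15 ± 0.19 (1.2e-06) and Angptl8 lower by 0.87 ± 0.23 (0.012).

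Of the 9 genes listed as growth hormone-dependent 1 rose and 3 fell with time in vehicle. All probe sets were called at 21.7% here and brighter ones at 33.3%. No added growth hormone is described for any group, and the list was not split by direction, so this count does not measure the hormone's action. Cyp3a2 changed by -5.55 ± 0.29 (adjusted p = 6.8e-09), Cyp2c13 by -4.54 ± 0.35 (2.8e-07) and Cyp2c7 by -2.73 ± 0.38 (0.00011), while Cyp2c11 rose by 1.02 ± 0.35 (0.05), a call lost without 5 of the 6 arrays (0.086 to 0.18).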
